A study of Homo sapiens with 12 samples.

Results

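The arrays labelled HLY compare RNA of the diffuse large B-cell lymphoma (DLBCL) cell line HLY-1 cultured under hypoxia, at 1% oxygen, with RNA of the same line cultured under normoxia, at 21% oxygen. They were chosen by their labels and are 6 of the 12 arrays of the series, 3 for hypoxia and 3 for normoxia. The other 6 arrays carry the label of a second DLBCL line, SUDHL2, with 3 at 1% and 3 at 21% oxygen. DLBCL is an aggressive cancer of mature B lymphocytes, and both lines were grown in RPMI-1640 with fetal bovine serum. All 4 groups received the same medium and the same carbon dioxide level, the labels name no drug or genetic change, and each line stands for 1 tumour. The sources do not name the hours of hypoxia behind these arrays or the slide on which each array lay. The comparison asks which transcripts of lymphoma cells differ when oxygen is scarce.

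In cells with enough oxygen, prolyl hydroxylases mark the alpha subunits of the hypoxia-inducible factors (HIF) for destruction through the von Hippel-Lindau protein. When oxygen is short the subunits persist, pair with ARNT and bind a short DNA motif at genes for glucose uptake, glycolysis, blood vessel growth and the removal of mitochondria. Hypoxia is also known to slow protein synthesis, partly through DDIT4, an inhibitor of mTOR signalling, and through the ATF4 stress response.

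Each array was an Illumina HumanHT-12 BeadChip, on which a probe reads a transcript as the fluorescence of labelled antisense RNA bound to it. Median intensity was 113 to 149 on the HLY arrays, and 13599 to 14925 probes on each were above background (a detection p under 0.01 against the negative controls of that array). Intensities were corrected for background, quantile-normalized over the 12 arrays and put on the log2 scale, and all levels below are these log2 intensities. Of each gene the brightest probe was used, which gave 9621 genes. Group means were compared with limma, and a gene is called higher or lower at a Benjamini-Hochberg adjusted p under 0.05. The replicates are described as biological, but nothing says that they were separate cultures, so p-values measure only the spread between these arrays. No pair of arrays of a group held the same values, with at most 3.14% of probes equal.

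Before any gene is described, the placing of the arrays needs to be given. The HLY hypoxia arrays correlated poorly with the HLY normoxia arrays, with a median Pearson r across genes of 0.755 (0.753 to 0.757 over 9 pairs), although the arrays within each group correlated at medians of 0.988 and 0.992. Genes are not independent replicates, so these r are descriptions. The HLY hypoxia arrays correlated at 0.984 with the SUDHL2 normoxia arrays and at 0.752 with the SUDHL2 hypoxia arrays. The HLY normoxia arrays correlated at 0.976 with the SUDHL2 hypoxia arrays and at 0.76 with the SUDHL2 normoxia arrays. The 12 arrays thus fell into a pair of blocks that cut across the line labels, and within a block the oxygen labels differ. Because arrays group across the line labels, most of the change between the HLY groups may be a difference between lines, and for most genes below the label's oxygen contrast and a line difference cannot be told apart. For this reason the counts over all genes, the largest changes and several lists are given as labelled and also against the SUDHL2 normoxia arrays. The other lists are given as labelled only.

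**Figure D1:**
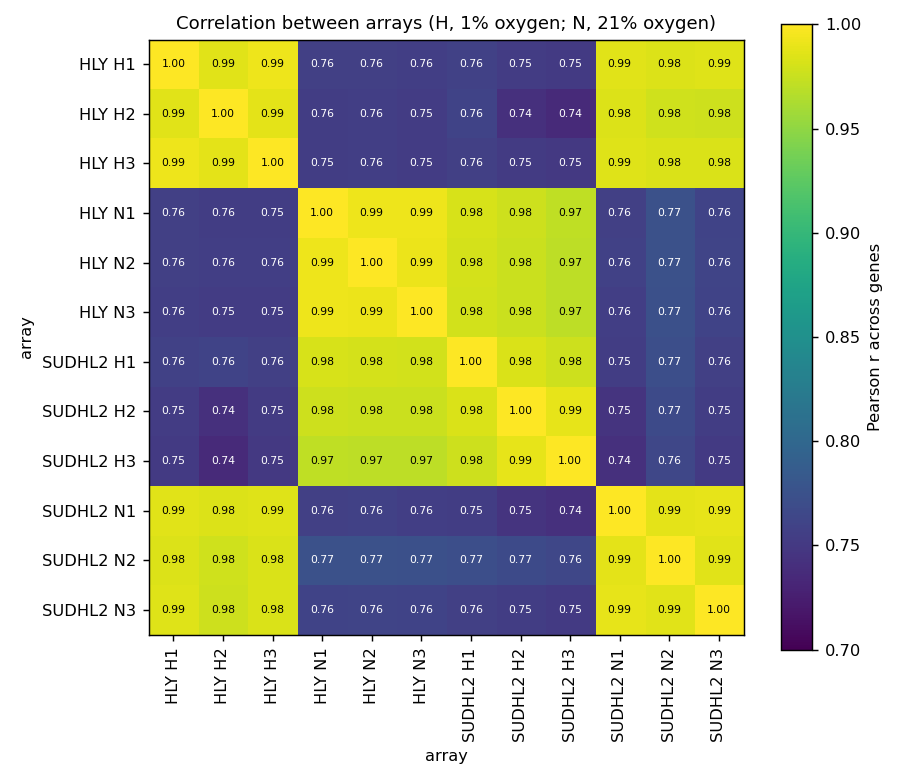
Pearson correlation of normalized log2 intensity across 9621 genes for every pair of the 12 arrays, with H for 1% and N for 21% oxygen (color scale 0.70 to 1.00). The HLY hypoxia rows are bright against SUDHL2 normoxia (median 0.984) and dark against HLY normoxia (median 0.755).

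The response was wide. Of the 9621 genes, 3185 were higher (33.1%) and 3119 were lower (32.4%) on the HLY hypoxia arrays, 65.5% in all. Every count of called list members below is to be read beside these shares. A change of at least 2-fold was called for 1599 genes upward (16.6%) and 1496 downward (15.5%). For 6920 genes (71.9%) the levels of the 3 arrays of one group all lay on the same side of those of the other. The median size of the difference was 0.63 on the log2 scale, against a median spread between replicates of 0.17 (SD), and 548 genes differed by at least 8-fold. Against the SUDHL2 normoxia arrays the same hypoxia arrays had a median difference of 0.16, with 60 genes at 2-fold or more and 2 at 8-fold or more. In that comparison 113 genes were higher (1.17%) and 118 lower (1.23%).

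**Figure D2:**
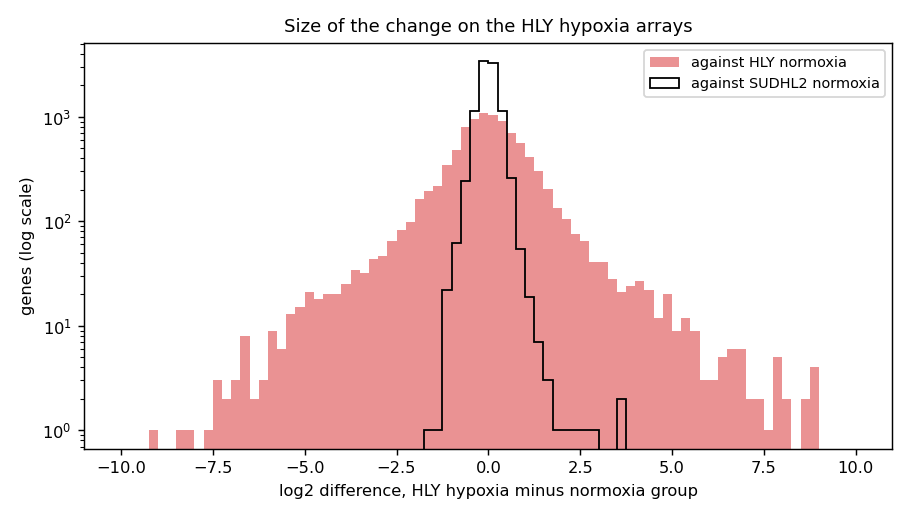
Number of genes (log scale) by log2 difference of the HLY hypoxia arrays from HLY normoxia (filled) and from SUDHL2 normoxia (line). The first has a median size of 0.63 and the second of 0.16.

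The same breadth was seen under the SUDHL2 label, turned around. There 3200 genes were higher (33.3%) and 3171 lower (33%) at 1% oxygen. The 2 labels' responses share no array, and across genes they had a Pearson r of -0.94 and a Spearman rho of -0.86. Of the genes called under HLY, 79.2% were called in the opposite direction under SUDHL2 (78.4% of the SUDHL2 calls), and 54 genes were higher and 78 lower under both labels. The test of the difference between the responses was past the threshold for 7100 genes (73.8%).

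Many genes were seen on one side only. A set of 697 genes was above background on all 3 HLY hypoxia arrays and on none of the normoxia arrays, and 574 of these were above background on all 3 SUDHL2 normoxia arrays. In the other direction 494 genes were above background on the 3 normoxia arrays alone, and 406 of them on all 3 SUDHL2 hypoxia arrays. The median level of the 697 genes was 6.86 to 6.96 on the HLY hypoxia arrays and 4.90 to 4.93 on the HLY normoxia arrays. The median level of the 494 genes was 4.77 to 4.79 under hypoxia and 7.47 to 7.50 under normoxia. For a gene not above background on any array of a group only a bound is known, and its fold is given as "at least", the mean of the bright group over the mean of the dim one, with each dim array at no less than its lowest level above background. Of the 7133 genes above background on all 6 HLY arrays, 2137 were higher and 2309 lower, 62.3% in all, so the breadth was not limited to genes seen on one side.

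The 10 largest increases were dominated by GAGE genes of the X chromosome, cancer-testis antigens that are normally silent outside the germ line. GAGE4 read 13.58, 13.98 and 13.66 under hypoxia and 4.57, 4.91 and 4.78 under normoxia, at least 229-fold higher (adjusted p = 4.87e-15 by limma). GAGE12G, GAGE12F, GAGE12J, GAGE12C, GAGE12B, GAGE12H and GAGE2A followed, each at least 93.0-fold higher, but these copies are nearly identical and their probes may read each other, so they count as 1 observation. DHRS2, a mitochondrial short-chain dehydrogenase, read 13.57, 14.01 and 13.60 under hypoxia and 5.01, 4.59 and 4.73 under normoxia, at least 228-fold higher (adjusted p = 4.84e-15). CCND2, cyclin D2, which drives entry into the cell cycle, read 12.75, 12.57 and 12.84 against 4.84, 4.86 and 4.70, at least 113-fold higher (adjusted p = 1.49e-12). The lack of overlap between the groups was part of the rule that chose the 10. Their adjusted p-values rest on normoxia levels below background, in genes picked for their size, and add no support. On the SUDHL2 normoxia arrays DHRS2 read 13.58, 13.69 and 13.58, and CCND2 read 12.68, 12.79 and 12.44, differences of 0.11 and 0.09 from HLY hypoxia.

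The 10 largest decreases held several B-lineage genes. BASP1, a membrane-bound signalling protein best known from neurons, read 5.02, 5.38 and 4.92 under hypoxia and 14.10, 14.12 and 14.10 under normoxia, at least 333-fold lower (adjusted p = 1.28e-06). TCL1A, a coactivator of the kinase AKT made by germinal-centre and naive B cells, read 4.59, 4.56 and 4.54 against 12.71, 12.92 and 12.85, at least 137-fold lower (adjusted p = 5.94e-09). CTSH, the lysosomal protease cathepsin H, was at least 143-fold lower. CD81, a tetraspanin of the B-cell co-receptor, was at least 112-fold lower, with 4.85, 4.86 and 4.94 against 12.68, 12.38 and 12.55. CXCR5, the receptor that guides B cells into follicles, read 4.46, 4.47 and 4.58 against 11.78, 11.91 and 12.06, at least 72.9-fold lower. LTB (lymphotoxin beta), TPM2 (beta-tropomyosin), the pseudogene NAPSB, PLEK (pleckstrin) and LMO2, a cofactor of blood cell transcription factors, completed the 10, each at least 57.7-fold lower. The adjusted p-values of these 10 rest on hypoxia levels below background and add no support either.

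Of the 20 genes with the largest changes, none differed between HLY hypoxia and SUDHL2 normoxia at the threshold (adjusted p 0.257 to 0.943), with differences of -0.14 to 0.19 for the higher genes. The lower 10 were above background on no HLY hypoxia array and on at most 1 SUDHL2 normoxia array, so no difference is given for them, and there SUDHL2 normoxia replicate 2 stood apart. It read BASP1 at 10.18 where the other arrays read 5.14 and 4.70, TCL1A at 7.54 against 4.66 and 4.58, and CD81 at 7.71 against 5.27 and 5.10. That array detected 38 of the 494 genes seen under HLY normoxia alone, where the other two detected 10 and 11. Without it 3141 genes were higher and 3114 lower under the HLY label, with 1591 and 1498 at 2-fold. Of 2040 other probes for called genes, 1830 (89.6%) pointed the same way as the brightest, as did 93.9% of those for genes called at 2-fold or more.

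**Figure D3:**
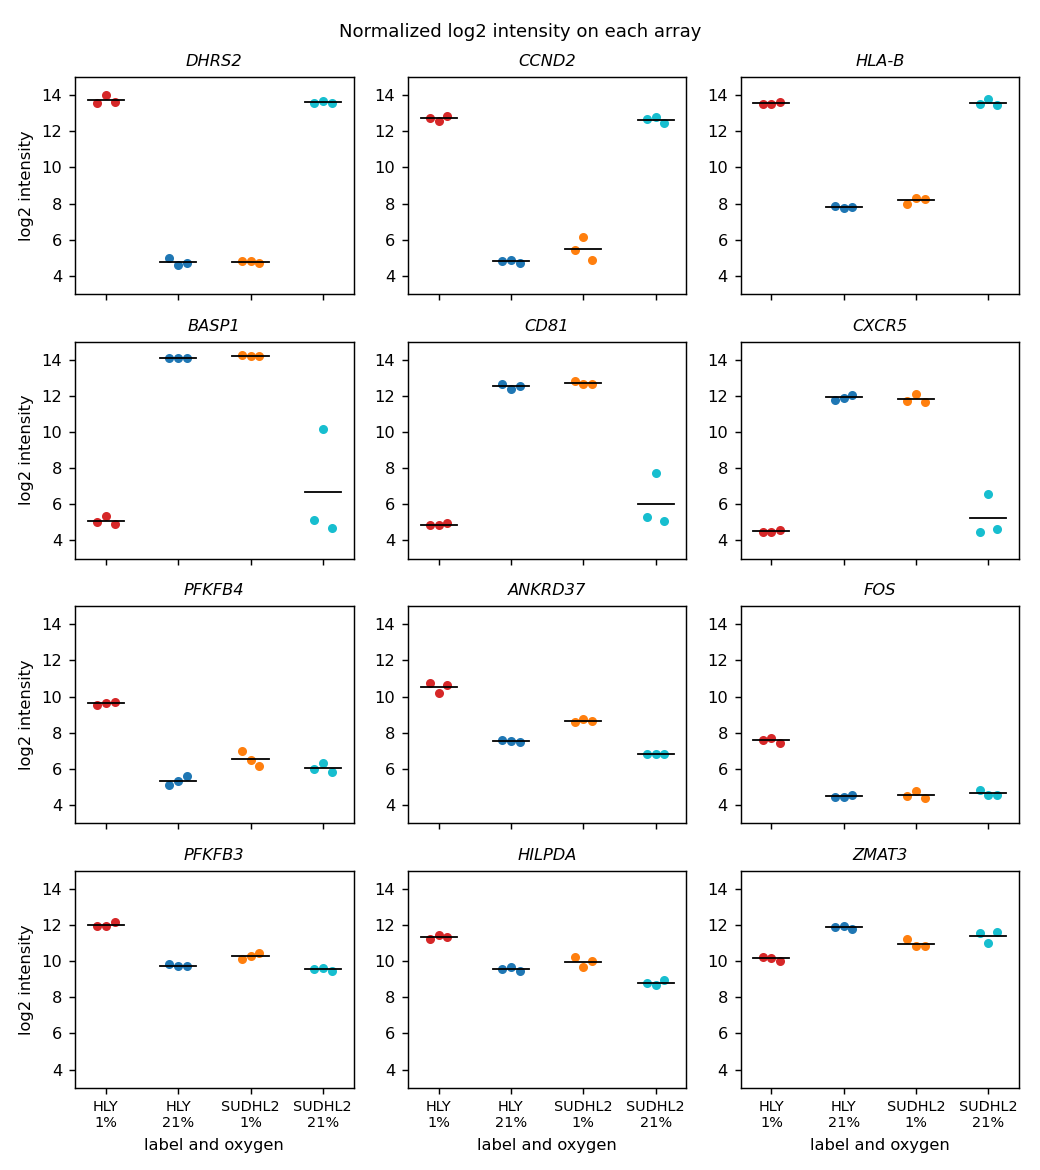
Normalized log2 intensity on each array for 12 genes in 4 groups (points are arrays, lines are group means, n = 3 each). DHRS2, CCND2 and HLA-B lie high in HLY hypoxia and SUDHL2 normoxia, BASP1, CD81 and CXCR5 lie high in the other pair of groups, and PFKFB4, ANKRD37 and FOS lie highest in HLY hypoxia.

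The label was checked against lineage markers. Of 11 B-cell markers on the array, 10 were above background on all HLY normoxia arrays but only CD37 and POU2AF1 on all HLY hypoxia arrays. PAX5, the factor that defines B-cell identity, was above background on none of the 6. The summed level of the list was 13.48 to 13.60 under normoxia and 10.66 to 11.11 under hypoxia (log2 of the sum). None of 8 natural killer markers (sums of 7.75 to 7.79 under hypoxia and 7.72 to 7.94 under normoxia) and none of 8 erythroid and megakaryocyte markers (7.91 to 8.05 and 7.77 to 7.99) was above background on all arrays of a group. Of 14 T-cell markers only TRAT1 passed in hypoxia, and its list summed to 8.85 to 9.09 under hypoxia and 8.66 to 8.71 under normoxia. Of 10 monocyte and macrophage markers AIF1 and CD68 passed in both groups and CEBPA in hypoxia, while CSF1R, CD163 and ITGAM were at background, with sums of 10.0 to 10.3 and 10.80 to 10.92. Of 10 endothelial and stromal markers ACTA2 passed in both groups and PECAM1 in hypoxia (10.38 to 10.44 and 8.53 to 8.65), and of 9 epithelial markers MUC1 passed in both and EPCAM in normoxia (11.51 to 11.62 and 10.43 to 10.55). The part of these marker differences in the results was not tested. In such bulk samples fewer cells of a type and less RNA per cell cannot be told apart.

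Genes of the B-cell receptor and its proximal signalling were lower as a group. The receptor pairs immunoglobulin with CD79A and CD79B, which recruit the kinases LYN, SYK and BTK. Of 24 tested members, 2 were higher and 20 lower (83.3%, against 32.4% of all genes), with a median of -2.50, or -2.01 with the 13 genes known only as bounds set to them. CD79A read 5.43, 5.25 and 5.93 under hypoxia and 11.98, 12.22 and 12.23 under normoxia, a log2 difference of -6.61 ± 0.41 (SE, n = 3 against 3). CD79B read 4.99, 4.97 and 4.89 against 10.95, 11.01 and 10.98. CD79B was above background on no hypoxia array and CD79A on 1 of 3, and neither gene's groups overlapped. BTK was at least 28.5-fold lower, LYN differed by -2.59 and the phosphatase PTPN6 by -2.65, whereas SYK was higher by 0.69. CD79A, CD79B, BTK, LYN and PTPN6 were named after their values were seen. No member differed from SUDHL2 normoxia.

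B-cell and plasma cell transcription factors lay on both sides. Of 23 tested, 7 were higher and 13 lower, with a median of -1.43 (-0.97 with bounds). XBP1, which drives the secretory programme of plasma cells, was highest at 1.78 ± 0.13 (SE), with 12.55, 12.54 and 12.47 against 10.74, 10.61 and 10.87. IRF4 and PRDM1, also plasma cell factors, were higher by 1.64 and 1.39, and so was TCF3, a factor of early B cells, by 1.76. BACH2, which holds off plasma cell fate, was called higher, but it was above background on no normoxia array and its fold was at least 1.16. LMO2 was at least 71.5-fold lower, IRF8 at least 72.8-fold and EBF1 at least 17.6-fold, none of them above background on any hypoxia array, so they have no order. TCF4 was lower at -3.85 and BCL6, the germinal-centre repressor, at -3.66. BCL6 alone also differed from SUDHL2 normoxia, where it was lower still (1.06 higher under HLY hypoxia, adjusted p = 0.0186). IRF4, PRDM1, TCF3, BACH2, IRF8, EBF1, TCF4 and BCL6 were named after their values were seen.

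**Figure D4:**
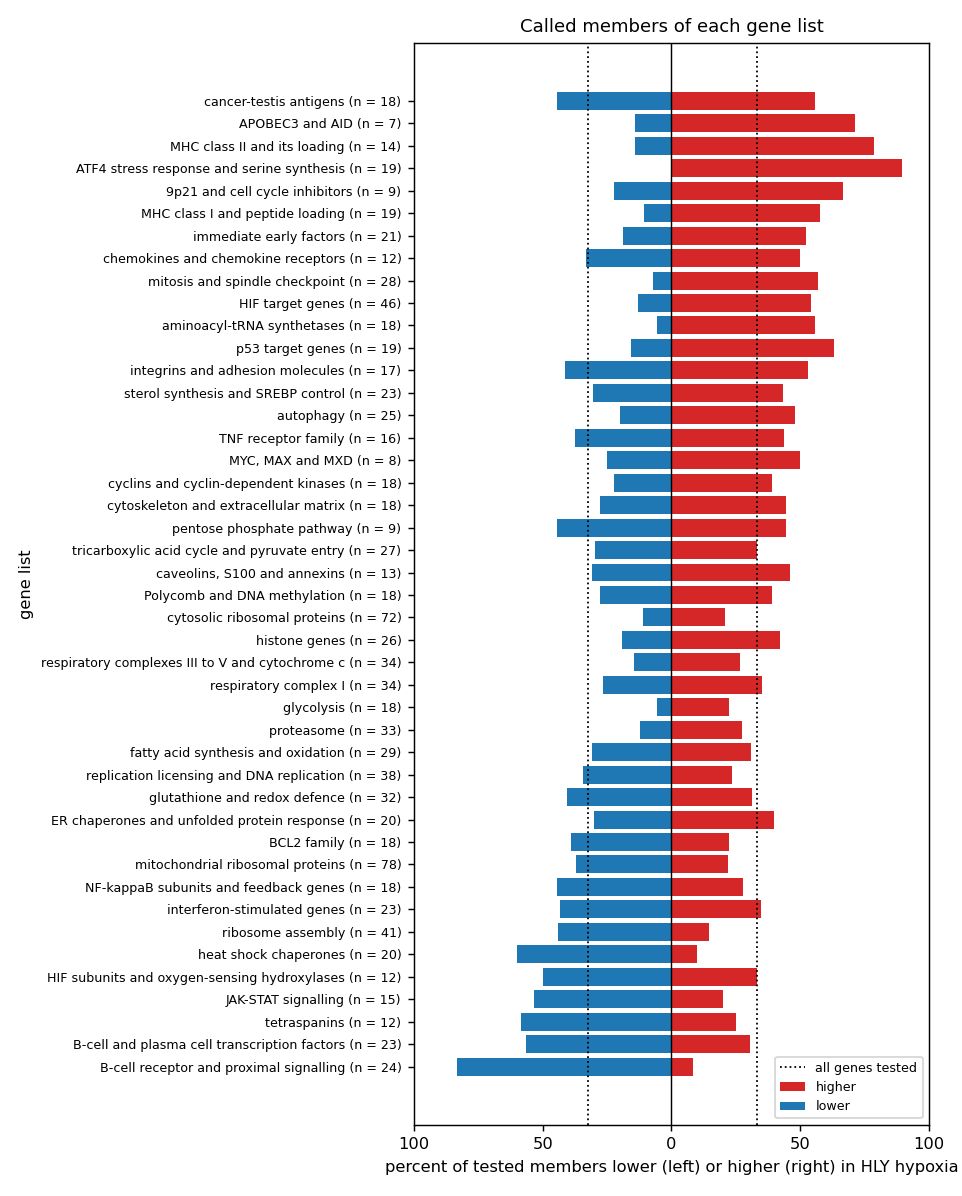
Share of the tested members of each gene list that were called lower (left) or higher (right) on the HLY hypoxia arrays, with dotted lines at the shares of all genes (32.4% and 33.1%). The B-cell receptor list lies furthest to the left (83.3% lower) and the ATF4 list has no member on that side.

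Antigen presentation genes were mostly higher. Of 14 tested genes of MHC class II, which shows peptides to helper T cells, 11 were higher (78.6%, against 33.1% of all genes) and 2 lower (14.3%, against 32.4%), with a median of 1.67 (1.45 with bounds). HLA-DPA1 read 11.63, 11.47 and 11.73 under hypoxia and 7.63, 7.57 and 7.73 under normoxia (3.97 ± 0.14, SE), and CIITA, the master regulator of the class, was at least 1.68-fold higher. The protease CTSS was lower, at least 2.06-fold. Of 19 class I genes 11 were higher (57.9%) and 2 lower (10.5%), with a median of 0.92 (0.36 with bounds). HLA-B read 13.53, 13.53 and 13.63 against 7.89, 7.73 and 7.83 (5.75 ± 0.13, SE), while B2M, the chain that all class I molecules share, differed by 0.25 (adjusted p = 0.103). ERAP2, a peptide trimming enzyme, was lower at -1.74, but another of its probes read 2.12 higher, so its direction depends on the probe. CIITA and B2M were named after their values were seen. Against SUDHL2 normoxia no class II gene was called, with a median of -0.18. There 1 class I gene was lower and none higher, with a median of -0.03. HLA genes differ between people, and allele-specific probe binding was not tested.

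Receptors and signalling proteins of the cell surface moved in both directions. Of 12 tested chemokines and chemokine receptors 6 were higher (50%, against 33.1% of all genes) and 4 lower (33.3%, against 32.4%). CCR2 read 10.67, 10.70 and 10.85 against 4.77, 5.23 and 5.23, at least 28.7-fold higher, and CXCR4, the receptor for bone marrow homing, was higher at least 19.4-fold, whereas CXCR5 was lower. The receptors for the marrow and for the follicle thus lay on opposite sides between the HLY groups. Neither CXCR4 nor CXCR5 differed from SUDHL2 normoxia at the threshold (adjusted p 0.612 and 0.408 by limma). In that comparison 1 gene of the chemokine list was higher and none lower, and no TNF receptor family member or tetraspanin was called. Of 16 members of the TNF receptor family 7 were higher (43.8%) and 6 lower (37.5%). TNFRSF17 (BCMA), a survival receptor of plasma cells, read 11.59, 11.70 and 11.75 against 4.95, 4.77 and 4.78, at least 55.1-fold higher. CD40, through which T cells help B cells, was at least 12.5-fold lower, and CD27, a memory B-cell receptor, was at least 7.81-fold lower. Of 12 tetraspanins 3 were higher (25%) and 7 lower (58.3%), from TSPAN31 at 1.33 to CD81. CXCR4 and CD27 were named after their values were seen.

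Of 15 JAK-STAT genes 3 were higher (20%, against 33.1% of all genes) and 8 lower (53.3%, against 32.4%), with a median of -0.60. SOCS2, an inhibitor of cytokine signalling, was at least 3.19-fold higher, and IL10RA, the interleukin-10 receptor, was at least 13.5-fold lower, with 5.27, 5.54 and 5.47 against 9.50, 9.43 and 9.52. Of 18 NF-kappaB genes 5 were higher (27.8%) and 8 lower (44.4%). The median of -0.27 became 0.06 with arrays centred on their median. NFKB2, the precursor subunit of the alternative pathway, was at least 2.85-fold higher, and CD83, a surface marker of activated B cells, was lower at -5.26. The lymphoid cytokine pathways therefore showed no single direction between the HLY groups. Compared with SUDHL2 normoxia, 4 of the 18 NF-kappaB genes were higher (against 1.17% of all genes) and none lower, with a median of 0.15. No JAK-STAT gene was called there.

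Genes of cell shape and adhesion also lay on both sides. Of 17 integrins and adhesion molecules 9 were higher (52.9%, against 33.1% of all genes) and 7 lower (41.2%, against 32.4%). PECAM1, an adhesion protein of endothelium and leukocytes, was at least 6.48-fold higher, and EPCAM, of epithelium, was at least 22.5-fold lower. CAV1, the coat protein of caveolae, read 11.59, 11.46 and 11.51 against 6.37, 6.76 and 6.42, a difference of 5.00. Of the 13 caveolin, S100 and annexin genes 6 were higher (46.2%) and 4 lower (30.8%), with ANXA5 lowest at -1.16. Among 18 cytoskeleton and matrix genes 8 were higher (44.4%) and 5 lower (27.8%). TUBB3, a beta-tubulin best known from neurons, was at least 50.3-fold higher, and TPM2 was lower.

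All 18 tested cancer-testis antigens were called, 10 higher and 8 lower, with a median of 2.38 (1.16 with bounds). Beside GAGE12F and GAGE2A, the higher members included SSX2, at least 39.9-fold, MAGEB2, at least 18.3-fold, and MAGEC1, at least 16.8-fold. The lower ones were led by MAGEA1, which read 6.51, 6.69 and 6.71 against 11.95, 11.84 and 11.77 (-5.22 ± 0.27, SE), and included MAGEA12 at -3.29 and MAGEA3 at -1.71. Members of these X-linked families are alike in sequence, and members of the MAGEA family lay on one side and those of GAGE and SSX on the other. No member differed from SUDHL2 normoxia. SSX2, MAGEB2, MAGEC1, MAGEA12 and MAGEA3 were named after their values were seen.

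Mitosis genes were more often higher than lower. Of 28 mitosis and spindle checkpoint genes 16 were higher (57.1%, against 33.1% of all genes) and 2 lower (7.14%, against 32.4%), with a median of 0.58. ESPL1 (separase), which cuts the link between sister chromatids, was higher by 2.28 ± 0.15 (SE), and BUB1B, a checkpoint kinase, was lower at -1.91. Against SUDHL2 normoxia none of the 28 was called, with a median of 0.02. Of 38 replication genes 9 were higher (23.7%) and 13 lower (34.2%). They ran from PRIM1, a primase subunit, at 1.72 to POLA2, a subunit of DNA polymerase alpha, at -2.25. Of 18 cyclins and cyclin-dependent kinases 7 were higher (38.9%) and 4 lower (22.2%). CCND3 read 9.56, 9.75 and 9.60 against 13.31, 13.07 and 13.22, a difference of -3.56, opposite to CCND2. The cyclins D2 and D3 thus lay on opposite sides between the HLY groups. No gene of the replication or cyclin lists was called against SUDHL2 normoxia.

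Targets of p53, the tumour suppressor that halts damaged cells, were more often higher. Of 19 tested, 12 were higher (63.2%, against 33.1% of all genes) and 3 lower (15.8%, against 32.4%), with a median of 0.56 (0.53 with bounds). TP53INP1 read 10.97, 11.02 and 11.03 against 6.13, 6.40 and 5.98, a difference of 4.83. CDKN1A (p21) read 12.21, 12.32 and 12.34 against 8.02, 7.68 and 8.10, a difference of 4.36, and was lower than in SUDHL2 normoxia (-0.54, adjusted p = 0.0477). ZMAT3, a zinc finger target of p53, ran the other way at -1.73. Against SUDHL2 normoxia 2 of the 19 targets were lower and none higher, with a median of -0.08. Among 9 genes of 9p21 and cell cycle inhibitors 6 were higher and 2 lower, and MTAP, the 9p21 neighbour of CDKN2A, was at least 4.53-fold lower, with 4.66, 4.68 and 4.89 against 8.03, 7.78 and 7.92. Of 18 BCL2 family genes 4 were higher and 7 lower, among them the survival protein MCL1 at 1.84 and its antagonist BMF at -4.28. The median of this family, -0.19, became 0.14 with median centring.

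Genes of oxygen sensing did not share a direction. Of 12 tested, 4 were higher and 6 lower. HIF1A, the alpha subunit of HIF-1, read 7.51, 7.91 and 7.90 under hypoxia and 10.13, 10.15 and 9.99 under normoxia, a difference of -2.31 ± 0.18 (SE, adjusted p = 4.38e-08). OS9, a lectin of the endoplasmic reticulum, was highest at 1.59, and EGLN1, the main prolyl hydroxylase and itself a HIF target, was higher by 0.85. HIF1A lay at 7.93, 7.75 and 7.39 on the SUDHL2 normoxia arrays, close to HLY hypoxia. EGLN1 was named after its value was seen.

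HIF target genes were higher more often than lower. Of 46 tested, 25 were higher (54.3%, against 33.1% of all genes) and 6 lower, with a median of 0.56 (0.48 with bounds). DDIT4, the mTOR inhibitor, read 12.80, 12.41 and 12.84 under hypoxia and 7.05, 6.73 and 6.56 under normoxia, a difference of 5.90 ± 0.16 (SE, adjusted p = 5.23e-13). HK1, a hexokinase, was lowest, at 6.18, 6.61 and 6.05 against 11.83, 11.74 and 12.03, a difference of -5.59. Several of the usual glycolytic targets were not called. PGK1 differed by -0.21 (adjusted p = 0.2), LDHA by 0.30 (adjusted p = 0.113) and the glucose transporter SLC2A1 by 0.13 (adjusted p = 0.401). Against SUDHL2 normoxia 12 of the 46 were higher and 1 lower, with a median of 0.17. SLC2A1 was among the 12, higher by 1.48 (adjusted p = 2.1e-05), and it was higher by 2.29 under the SUDHL2 label. PGK1 (0.12) and LDHA (0.20) were not called against SUDHL2 normoxia. Of 18 glycolysis genes 4 were higher, led by PFKM at 1.43, 1 was lower and 13 were not called. PGK1, LDHA and SLC2A1 were named after their values were seen.

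Some of these genes stood apart from both sets of normoxia arrays. A gene was called higher than both when its hypoxia level was above HLY normoxia and above SUDHL2 normoxia, with the larger of the 2 p-values adjusted over all genes. This held for 49 genes (0.509%), and 63 genes were lower than both (0.655%). Some of the 49 passed the detection filter only through the HLY hypoxia arrays. FOS, FOSB, KLF5, CCL3L1, KSR1, LOC154761, LOC613266, PROS1, ACVR2A and TAS2R14 were above background on no other array of the series. Their calls rest on normoxia levels below background and add no support. PNMA1, SETBP1 and SNORA2C were above background on at most 2 other arrays. All but FOS were named after their values were seen. ACVR2A and TAS2R14 had log2 bounds of -0.0008 and -0.003 against HLY normoxia, which show no increase. Of the 46 HIF targets 11 were among the 49 and none among the 63. The 11 were DDIT4, BHLHE40, PFKFB4, ANKRD37, MXI1, VEGFA, P4HA1, PFKFB3, KDM3A, BNIP3L and HK2, of which BHLHE40, VEGFA, P4HA1 and BNIP3L are named after their values were seen. Their responses under the SUDHL2 label were mixed. There DDIT4 (-2.37), BHLHE40 (-3.18), P4HA1 (-1.01) and MXI1 were called lower at 1% oxygen. ANKRD37, PFKFB3, KDM3A and HK2 were called higher, and PFKFB4, VEGFA and BNIP3L were not called. The SUDHL2 contrast crosses the blocks of arrays too, so for its lower genes an oxygen response and a line difference cannot be told apart. The counts of 49 and 63 moved with the processing, to 15 higher and 0 lower with arrays centred on their median and to 10 and 1 with the replicate number as a block. They were 27 higher without HLY hypoxia replicate 1, 26 higher and 35 lower without replicate 2, and 20 higher and 26 lower without replicate 3.

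PFKFB4, a kinase-phosphatase that sets the level of the glycolytic activator fructose 2,6-bisphosphate, led the higher genes. It read 9.53, 9.67 and 9.72 under HLY hypoxia, 5.12, 5.32 and 5.62 under HLY normoxia and 6.01, 6.35 and 5.82 under SUDHL2 normoxia. It was above background on no HLY normoxia array and on 2 of 3 SUDHL2 normoxia arrays, at least 13.4-fold higher than the first group and 3.58 higher on the log2 scale than the other (adjusted p for both = 2.34e-07). Its relative PFKFB3 read 11.97, 11.94 and 12.15 against 9.82, 9.70 and 9.73 and against 9.54, 9.64 and 9.45 (adjusted p for both = 2.04e-07). The hypoxia arrays of both genes lay above all normoxia arrays of either label. Under the SUDHL2 label PFKFB3 was also higher at 1% oxygen, by 0.76 (adjusted p = 0.000103), and PFKFB4 by 0.49 (adjusted p = 0.0506), which did not pass.

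ANKRD37, a small ankyrin-repeat protein induced by HIF, read 10.74, 10.20 and 10.65 under HLY hypoxia. It read 7.58, 7.56 and 7.49 under HLY normoxia and 6.81, 6.81 and 6.83 under SUDHL2 normoxia. Its differences were 2.99 and 3.72 (adjusted p for both = 3.61e-08), and it was higher under the SUDHL2 label as well, by 1.84. HILPDA, a lipid droplet protein that was not on the HIF target list, read 11.23, 11.47 and 11.31 against 9.59, 9.69 and 9.48, and against 8.77, 8.68 and 8.98 (adjusted p for both = 3.89e-05). HILPDA was higher by 1.15 under the SUDHL2 label, so ANKRD37, HILPDA and PFKFB3 were higher at 1% oxygen under both labels. The SUDHL2 difference uses the same SUDHL2 normoxia arrays by which these genes were chosen, so it is not independent of that choice. KDM3A, a histone demethylase, was higher by 1.68 and 2.05, and by 1.15 under the SUDHL2 label. HK2, the inducible hexokinase, read 11.12, 11.28 and 11.01 against 10.56, 10.45 and 10.73, a smaller difference of 0.56, and was higher by 1.13 against SUDHL2 normoxia (adjusted p for both = 0.0434). KDM3A and HK2 were named after their values were seen.

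Not all of the 49 were HIF targets on the list. FOS, an immediate early factor, read 7.61, 7.69 and 7.42 under HLY hypoxia, while all normoxia arrays of both labels lay between 4.44 and 4.84. It was above background on no other array of the series, and so passed the detection filter only through the HLY hypoxia arrays. It was at least 3.20-fold and 3.35-fold higher than the 2 normoxia groups. Its adjusted p for both, 3.61e-08 by limma, rests on normoxia levels below background and adds no support. Under the SUDHL2 label only such bounds are known for FOS. Of 21 immediate early factors 11 were higher and 4 lower, and FOS, FOSB and EGR1 were higher than both normoxia groups. FOSB too was above background on the HLY hypoxia arrays alone, and its bounds were only 1.205-fold and 1.264-fold. EGR1 read 8.42, 8.26 and 8.26, against 5.07, 5.20 and 5.19 and against 6.75, 6.84 and 6.76. KLF2, a quiescence factor of lymphocytes, had the largest increase of the list, at least 100.4-fold, and DUSP2, a phosphatase of the MAP kinases, the largest decrease at -2.62. KLF2 did not differ from SUDHL2 normoxia (-0.07). FOSB and EGR1 were named after their values were seen.

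Of the genes lower than both normoxia groups, COA8, an assembly factor of respiratory complex IV, was first. It read 8.84, 8.50 and 8.66 under HLY hypoxia, 10.84, 10.88 and 10.54 under HLY normoxia and 10.24, 9.55 and 10.18 under SUDHL2 normoxia (differences of -2.09 and -1.32, adjusted p for both = 0.00266). ZMAT3 differed by -1.73 and -1.22. TDP1, a DNA repair enzyme, differed by -1.87 and -1.14, but by -0.25 (adjusted p = 0.114) against HLY normoxia when its probes were averaged. Both other probes of TDP1 read higher, by 0.71 and 0.41, so its direction depends on the probe. CEP19, a centrosome protein, differed by -1.84 and -1.11, and LOC100128288 by -1.92 and -1.15. Under the SUDHL2 label the 5 lay between -0.14 and -0.41, and only ZMAT3 was called (adjusted p = 0.0451 by limma). That difference uses the SUDHL2 normoxia arrays by which the 5 were chosen, so its sign is not independent of the choice.

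The HIF motif was looked for in the promoters of the genes higher than both groups. The letters ACGTG were searched on both strands, so that CACGT counts as a match and CACGTG as 2 overlapping matches, in the 250 bases before each gene start in the RefSeq table (GRCh38.p14). Only the first entry of a gene was searched. Of the 49 genes 36 had an entry, some of which, FOS among them, passed the detection filter only through the HLY hypoxia arrays. A match was held by 15 of the 36 (41.7%), against 24.6% of the 7832 genes tested with an entry. It was held by 26% of the 50 promoters of genes lower than both. Over all 35116 promoters, with every entry of a gene counted, the share was 18.5%. Among genes called under the HLY label alone the shares were 24.4% for higher and 24.4% for lower genes. The promoters searched for PFKFB4, PFKFB3, FOS and KDM3A held no match in this window. PFKFB3 and KDM3A have 2 entries each, and the second was not searched. The 3 sequences below belong to the highest-ranked genes that held one, and capitals mark the matches.
ANKRD37, chr4:185396591-185396840, plus strand: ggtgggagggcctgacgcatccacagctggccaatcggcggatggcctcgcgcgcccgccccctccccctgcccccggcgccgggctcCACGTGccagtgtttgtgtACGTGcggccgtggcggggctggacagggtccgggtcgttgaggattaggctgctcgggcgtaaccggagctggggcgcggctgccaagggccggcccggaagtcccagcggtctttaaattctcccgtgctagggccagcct
DDIT4, chr10:72273674-72273923, plus strand: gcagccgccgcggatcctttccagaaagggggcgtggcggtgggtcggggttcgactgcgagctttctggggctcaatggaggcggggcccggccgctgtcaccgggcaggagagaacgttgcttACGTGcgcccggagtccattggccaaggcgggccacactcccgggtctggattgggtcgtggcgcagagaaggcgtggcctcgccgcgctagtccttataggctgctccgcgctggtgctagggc
EGR1, chr5:138465229-138465478, plus strand: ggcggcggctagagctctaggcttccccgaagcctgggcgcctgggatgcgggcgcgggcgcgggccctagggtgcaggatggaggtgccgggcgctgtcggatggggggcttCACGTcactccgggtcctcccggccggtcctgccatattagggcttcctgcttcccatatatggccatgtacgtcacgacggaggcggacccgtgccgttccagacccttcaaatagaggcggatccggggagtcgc
A match is a description of these letters and not evidence of binding. DDIT4 and EGR1, which hold 1 match each, were higher than both normoxia groups by at least 1.63 and 1.53, and ANKRD37, with 3, by at least 2.99. PFKFB4, with no match, was higher by at least 3.58, and BHLHE40, with 4, by at least 0.86. Whether the number of matches goes with the size of the difference was not tested.

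Respiration and pentose phosphate genes had no common direction. Of 34 complex I genes 12 were higher (35.3%) and 9 lower (26.5%), near the shares of all genes (33.1% and 32.4%). They ran from NDUFA7 at 1.72 to NDUFB1 at -1.79. Of 34 genes of complexes III to V 9 were higher and 5 lower, from CYCS (cytochrome c) at 1.28 to UQCRC2 at -1.16. Among 27 genes of the tricarboxylic acid cycle and pyruvate entry 9 were higher and 8 lower. IDH2, the mitochondrial isocitrate dehydrogenase, was at least 20.4-fold lower, with 5.37, 4.97 and 5.19 against 10.05, 10.15 and 10.04, and MPC2, a subunit of the pyruvate carrier, was higher by 1.79. Of 9 pentose phosphate genes 4 were higher and 4 lower, with PGD at 0.96 and TALDO1 at -1.49.

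In lipid metabolism 10 of 23 sterol genes were higher (43.5%, against 33.1% of all genes) and 7 lower (30.4%, against 32.4%). SREBF1, the factor that turns on lipid synthesis, read 10.97, 11.02 and 11.22 against 7.05, 6.96 and 6.86, a difference of 4.11, and INSIG1, which holds SREBP proteins in the endoplasmic reticulum, was lower at -3.32. Of 29 fatty acid genes 9 were higher (31%) and 9 lower (31%), near the shares of all genes. They ran from the elongase ELOVL6 at 2.37 to the desaturase FADS1, at least 8.21-fold lower. The factor and its inhibitor thus lay on opposite sides between the HLY groups, while neither list had one direction. No gene of either list was called against SUDHL2 normoxia.

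Protein synthesis genes were counted by compartment. Of 72 cytosolic ribosomal proteins 15 were higher, 8 lower and 49 not called, with a median of 0.09. RPS23 read 10.70, 10.69 and 10.64 against 6.58, 6.42 and 6.60, a difference of 4.14, and RPL26L1 was at least 20.5-fold lower. Of 78 mitochondrial ribosomal proteins 17 were higher and 29 lower, with a median of -0.25 that became 0.08 with median centring, and MRPS9 at 1.24 and MRPL41 at -2.26 marked the ends. Of 41 ribosome assembly genes 6 were higher and 18 lower, with a median of -0.35, from RRP12 at 1.42 to POLR1E at -1.61.

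The ATF4 list had the most even direction of those described. ATF4 is translated when the initiation factor eIF2 is phosphorylated, and it turns on amino acid transport and synthesis. Of 19 tested members 17 were higher (89.5%, against 33.1% of all genes) and none lower, with a median of 1.20 (1.00 with bounds). WARS1, tryptophanyl-tRNA synthetase, read 11.51, 11.45 and 11.52 against 8.04, 8.41 and 8.49, a difference of 3.18 ± 0.16 (SE). ASNS (asparagine synthetase) was higher by 2.39, TRIB3 by 2.29 and ATF4 itself by 1.20. Against SUDHL2 normoxia 2 of the 19 were higher and none lower, with a median of 0.13. Under the SUDHL2 label 16 of the 19 were lower at 1% oxygen. CHAC1, a glutathione-degrading enzyme, was the 1 member higher than both normoxia groups, by 0.83 over SUDHL2 normoxia. Of 18 aminoacyl-tRNA synthetases 10 were higher and 1, NARS1, lower at -0.80. ASNS, TRIB3, ATF4 and CHAC1 were named after their values were seen.

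Chaperones and degradation genes followed other patterns. Of 20 heat shock chaperones 2 were higher (10%) and 12 lower (60%, against 32.4% of all genes), with a median of -0.39. They ran from BAG3 at 1.29 to DNAJB6 at -2.64, and with median centring 6 were called lower. Against SUDHL2 normoxia 1 chaperone was lower and none higher. Of 20 genes of the unfolded protein response 8 were higher and 6 lower, among them SEL1L, at least 2.51-fold higher, and CANX (calnexin) at -2.05. Of 33 proteasome genes 9 were higher and 4 lower, from PSMD9 at 2.08 to PSMD2 at -0.64. Of 25 autophagy genes 12 were higher and 5 lower. PIK3C3, the lipid kinase that starts autophagosomes, was higher by 4.25, and MAP1LC3A was at least 6.33-fold lower.

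Redox and defence genes held some of the widest differences. Of 32 glutathione and redox genes 10 were higher (31.2%, against 33.1% of all genes) and 13 lower (40.6%, against 32.4%). MGST1, a membrane-bound glutathione transferase, read 11.94, 11.81 and 11.80 against 4.55, 4.68 and 4.52, at least 62-fold higher, and GPX7, a peroxidase of the endoplasmic reticulum, was at least 30.2-fold lower. Of 23 interferon-stimulated genes 8 were higher (34.8%) and 10 lower (43.5%), with EPSTI1 at 3.62 and IFITM2 at least 13.7-fold lower. Among 7 genes of the APOBEC3 and AID list, which deaminate cytidine in DNA, 5 were higher (71.4%) and 1 lower (14.3%). APOBEC3B was at least 6.85-fold higher, and UNG, which removes uracil from DNA, was lower at -1.19. The 5 higher members were neighbouring APOBEC3 genes of chromosome 22.

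Chromatin and growth regulators completed the lists. Of 18 Polycomb and DNA methylation genes 7 were higher and 5 lower, from CBX6 at 2.01 to EZH2, the histone methyltransferase of Polycomb, at -1.98, which read 8.34, 8.10 and 8.47 against 10.17, 10.28 and 10.39. Of 8 genes of the MYC network 4 were higher and 2 lower, with MYC itself at 0.78, MXI1, which opposes MYC, at least 2.80-fold higher and MAX, the shared partner, at -0.97, though 1 of its 3 other probes read 0.67 higher. Of 26 histone genes 11 were higher and 5 lower, from H1-10 at 3.50 to H4C8, at least 2.72-fold lower. MYC was named after its value was seen. Of 13 reference genes often used as controls 4 were higher and 2 lower.

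The changes were not spread evenly over chromosomes. The median log2 difference of the tested genes was lowest for chromosome 13 (-0.56, 172 genes, 25 higher and 97 lower) and chromosome 11 (-0.45, 560 genes, 96 higher and 295 lower). It was highest for chromosome 8 (0.44, 354 genes, 183 higher and 61 lower) and chromosome 22 (0.40, 237 genes). Under the SUDHL2 label chromosome 13 stood at 0.34, chromosome 11 at 0.56 and chromosome 8 at -0.56, each with the sign turned. In windows of 20 neighbouring tested genes, all 20 from NKX2-3 to LZTS2 on chromosome 10 were lower, with a median of -1.61, and 19 of 20 from USP42 to MEOX2 on chromosome 7 were higher, with a median of 1.43. These are descriptions with no test, and whether copy number differs between the cells of the arrays was not tested.

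**Figure D5:**
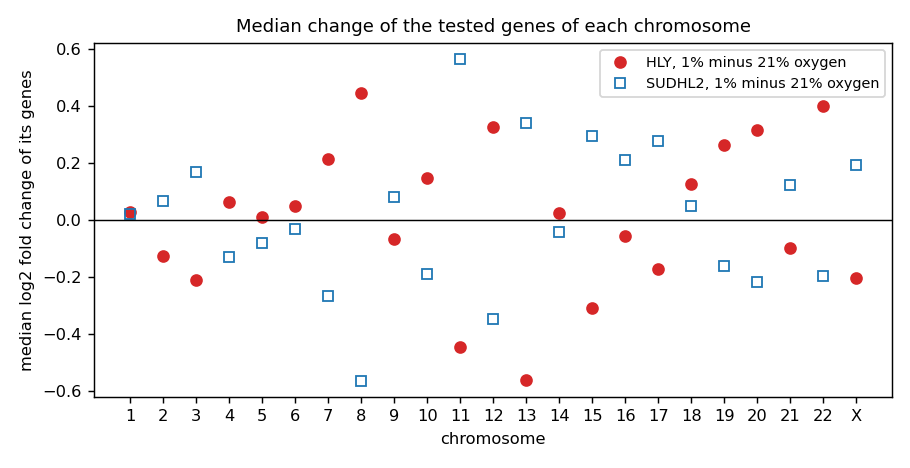
Median log2 difference, 1% minus 21% oxygen, of the tested genes of each chromosome for the arrays labelled HLY (circles) and SUDHL2 (squares). Chromosome 13 and chromosome 11 lie lowest for HLY (-0.56 and -0.45) and above 0 for SUDHL2, and chromosome 8 lies highest for HLY (0.44).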

How the data were processed

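RNA from the lines HLY and SUDHL2 at 1% or 21% oxygen was measured on 12 BeadChips, 3 in each of 4 groups taken from the labels. The authors deposited the intensity of each of 47230 probes as GenomeStudio 2011.1 gave it, not normalized. The authors also deposited a detection p-value for each probe, set against the negative controls, and a score, which proved on recomputing to be each array's z-scaled log10 intensity (largest deviation 0.011). Their methods describe a detection filter and a selection by z-test, false discovery rate, z-ratio and ANOVA F-test.

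Intensities were processed with neqc in limma 3.58.1 (R 4.3.3), which fits normexp from the detection p-values, quantile-normalizes the 12 arrays and takes log2 after an offset of 16. A probe was kept if 3 or more arrays gave it a detection p under 0.01 (16288 probes, of which 12684 had a symbol). Of all probes 30113 had 1 gene symbol, 8 several and 17109 none, and 30074 symbols were updated through RefSeq. The brightest kept probe stood for a gene, in 9621 genes, 2492 of them with several probes. Group means were fitted with lmFit, and eBayes moderated the spread (degrees of freedom: 8 residual, 5.71 prior), with a threshold of 0.05 over all genes. The script was tested on simulated data. Figures used matplotlib 3.10.9 and pandas 2.3.3 in Python 3.11.15.

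Named genes are the 10 largest increases and decreases without overlap, the 5 highest and 5 lowest against both normoxia groups, and the member with the largest called increase and decrease of each list. Gene lists, members and comparisons were chosen with earlier results of these data known. With 3 arrays a group, permuting labels exactly cannot give a p below 0.1, so no such test was used. The number of arrays limits precision. The alternatives changed the background correction, normalization, detection filter, probe choice, moderation and replicate block, took the deposited scores, used the methods' selection, or left out arrays. Leaving out SUDHL2 normoxia replicate 2 was added after the data were seen. Y-linked genes and XIST were left out.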

Additional observations from a re-analysis of the deposited data

Results flagged for a closer look

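The difference between hypoxia and normoxia arrays was not the same under the HLY and the SUDHL2 label for 7100 of 9621 genes, by the test of the difference itself. The HLY hypoxia arrays correlated at a median of 0.984 with SUDHL2 normoxia, and the HLY normoxia arrays at 0.976 with SUDHL2 hypoxia. Both contrasts thus cross the blocks of arrays, so for most genes this test cannot tell an oxygen response from a line difference. The values below are the HLY difference minus the SUDHL2 difference on the log2 scale. Among the 10 largest HLY increases they were GAGE4 at 17.88, DHRS2 at 17.79, GAGE12G at 17.60, GAGE12F at 17.30, GAGE12J at 16.97, GAGE12C at 16.96, GAGE12B at 16.33, GAGE12H at 15.78, GAGE2A at 15.57 and CCND2 at 15.05. Among the 10 largest decreases they were BASP1 at -16.55, TCL1A at -15.62, CTSH at -15.55, CD81 at -14.34, TPM2 at -14.03, CXCR5 at -14.02, LTB at -13.97, NAPSB at -13.94, LMO2 at -13.34 and PLEK at -13.24. In all 20 genes the dim groups were above background on at most 1 of 3 arrays, so these are fitted values that give no bound and no order. With each group above background on no array set to its floor they became 12.83 to 15.48 for the first 10 and -15.93 to -11.79 for the others. For all 20 genes the responses under the labels had opposite signs, and none of the 20 differed between HLY hypoxia and SUDHL2 normoxia at the threshold.

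Among the genes higher than both normoxia groups the differences were smaller, with PFKFB4 at 3.80, FOS at 3.17, PFKFB3 at 1.51, ANKRD37 at 1.15 and HILPDA at 0.60. The values of PFKFB4 and FOS are fitted too, and became 3.26 and 1.52 with groups above background on no array set to their floor. For ANKRD37, PFKFB3 and HILPDA the HLY response was the larger of 2 responses in the same direction. Among the genes lower than both the differences were COA8 at -1.75, TDP1 at -1.74, LOC100128288 at -1.66, CEP19 at -1.54 and ZMAT3 at -1.31.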

How the results depend on the processing

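Of 107 named genes 102 kept their direction and call between the HLY groups under 17 alternatives. The methods' selection was not among the 17, and the statement does not cover the calls against both normoxia groups, whose lower genes numbered 0 and 1 under a pair of alternatives given below. With the mean of a gene's probes ERAP2 turned to 0.19 (adjusted p = 0.288) and TDP1 was not called. With median centring NARS1 (-0.49, adjusted p = 0.155), PSMD2 (-0.34, adjusted p = 0.22) and MAX (-0.61, adjusted p = 0.0877) were not called. The cause was not tested.

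Median centring moved the median of all genes from -0.01 to 0.29, left 1585 genes lower, and put 67.7% of calls on the higher side in place of 50.5%. With it 15 genes were higher and 0 lower than both normoxia groups. Without background correction 859 genes were at least 2-fold higher and 920 lower, the folds being smaller by construction. With detection on all 12 arrays 6712 genes were tested, of which 2046 were higher, 744 at 2-fold, and 827 were at least 2-fold lower. The methods' selection, with its stricter rule, held 508 higher and 518 lower genes. Genes lower than both groups numbered 36 in the deposited scores, and 39 when probes were averaged.

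Leaving out single arrays gave 2902 to 3141 higher and 2852 to 3114 lower genes, 1563 to 1635 and 1481 to 1525 at 2-fold, 20 to 40 higher and 26 to 54 lower than both groups, and 6845 to 6963 genes with differing responses. Same-numbered hypoxia and normoxia arrays had deviations that correlated at -0.0184, 0.0429 and -0.00448 under HLY, at 0.231, 0.024 and 0.103 under SUDHL2, and at -0.19, -0.0629 and -0.0038 between HLY hypoxia and SUDHL2 normoxia. Not every pair passed 0.1 in any of the 3 sets, so the number was not taken as a pairing. With that number as a replicate block 10 genes were higher and 1 lower than both groups, and 6182 of the 6304 HLY calls were called again. The 2-fold counts could not be had from the deposited scores, and HLY arrays fitted alone give no comparison with SUDHL2.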
